A study of Mus musculus with 9 samples.

Results

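The MHC class I and peptide loading genes described here are 10 mouse genes, taken by symbol from a table of 55536 gene rows: the heavy chains H2-K1, H2-D1, H2-Q4 and H2-T23, their light chain B2m, the peptide transporter subunits Tap1 and Tap2, the transporter-associated chaperone Tapbp, the peptide-trimming enzyme Erap1 and the transcriptional activator Nlrc5. All 10 were found in the table and all passed the filter on low counts, together with 13815 genes in all that were tested. The study sequenced RNA from BMDM of wild-type mice, which are macrophages grown in culture from bone marrow with the growth factor M-CSF. The marrow came from male mice aged 6 to 12 weeks, and M-CSF was given at 25 ng/mL for 6 days.

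The cells then spent 18 h with one of 3 additions, in 3 libraries each. The EKO-BMDM-exo group received exosomes, small vesicles that cells release, from BMDM of ApoE-deficient mice. The WT-BMDM-exo group received exosomes from BMDM of wild-type mice, at the same 2e+09 particles/mL. The PBS group received the buffer and no exosomes. The recipient cells were wild-type in all 9 libraries, so the genotype refers to the donors of the vesicles. Whether the 3 libraries of a group came from separate mice, or were given separate exosome preparations, is not stated, and p-values therefore measure the spread between these libraries, which may be technical.

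MHC class I molecules are pairs of a heavy chain and beta-2 microglobulin that hold a short peptide and show it at the cell surface to CD8 T cells and natural killer cells. Peptides cut by the proteasome are carried into the endoplasmic reticulum by TAP1 and TAP2, trimmed by ERAP1 and placed onto the heavy chain with the help of tapasin, the product of Tapbp, and general chaperones. H2-K1 and H2-D1 encode classical heavy chains that most nucleated mouse cells carry, H2-Q4 and H2-T23 encode non-classical ones, and interferons raise the transcription of the pathway through STAT and IRF factors and NLRC5. In macrophages the same route can also display peptides from material that the cells have taken up.

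Total counts were 28581306 to 35929596 per library, the members had 1366 to 109038 counts each in a library, and the 10 together took 0.645% to 0.711% of a library's counts. In a principal component analysis, replicate 3 of WT-BMDM-exo stood apart on component 1 (15.2% of the variance), at 57.5 against -16.8 to 3.43 in the other libraries. On component 2 (15.1%), replicate 2 of EKO-BMDM-exo stood at 38.0 and replicate 2 of WT-BMDM-exo at -45.4. All 10 macrophage markers listed (such as Adgre1, Csf1r and Cd68) were above 1 CPM, the count scaled to the library's total, on average. Their summed level was 20657 to 21641 CPM with EKO-BMDM-exo, 20874 to 21545 CPM with WT-BMDM-exo and 22543 to 23784 CPM with PBS, so that both exosome groups lay below the PBS group. The sum is mostly Lyz2, at 13104, 12872 and 14051 CPM on average in the same order of groups. Cd68 averaged 2605, 2666 and 2498 CPM and was higher than PBS in every WT-BMDM-exo library. All other listed macrophage markers averaged below PBS in both exosome groups, such as Csf1r at 3327, 3471 and 4051 CPM. Fcgr1 averaged 92.4, 121 and 138 CPM. Its log2 fold change with EKO-BMDM-exo was -0.58 against PBS (edgeR adjusted p = 6.6e-10), a larger fall than in any member. Against WT-BMDM-exo it was -0.39 (edgeR adjusted p = 9.58e-06). None of 7 dendritic cell markers averaged over 1 CPM. The 8 neutrophil markers summed to 3.78 to 18.0 CPM with EKO-BMDM-exo, 10.3 to 30.7 CPM with WT-BMDM-exo and 20.8 to 29.9 CPM with PBS, and the 7 fibroblast markers (Lum at 0) to 5.85 to 24.8, 16.6 to 29.9 and 8.94 to 63.8 CPM in the same order of groups. The B cell markers, of which Cd79a was at 0 in every library, summed to 1.01 to 1.48 CPM with EKO-BMDM-exo, 0.244 to 0.653 CPM with WT-BMDM-exo and 1.18 to 2.37 CPM with PBS, so that WT-BMDM-exo lay below both other groups. Among the rest, 4 of 5 mast cell or basophil markers and 4 of 5 erythroid markers were at 0, and the T or NK cell markers summed to at most 0.261, 0.359 and 0.304 CPM in the same order. The part of these levels in the results below was not tested.

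Of the members, 7 lie on chromosome 17, in or beside the mouse MHC. In GRCm38 with the GENCODE M21 annotation, H2-K1 (ENSMUSG00000061232) spans chr17:33996017-34000347 on the minus strand, H2-D1 (ENSMUSG00000073411) chr17:35262730-35267499 on the plus strand, H2-Q4 (ENSMUSG00000035929) chr17:35379617-35385290 on the plus strand and H2-T23 (ENSMUSG00000067212) chr17:36029773-36032855 on the minus strand. Tapbp (ENSMUSG00000024308), Tap1 (ENSMUSG00000037321) and Tap2 (ENSMUSG00000024339) lie on the plus strand at chr17:33915899-33929292, chr17:34187553-34197225 and chr17:34203527-34216321. H2-K1 lies between Tapbp and Tap1. B2m (ENSMUSG00000060802) lies at chr2:122147686-122153083, Erap1 (ENSMUSG00000021583) at chr13:74639568-74693201 and Nlrc5 (ENSMUSG00000074151) at chr8:94434356-94527272, all on the plus strand.

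H2-K1, H2-Q4 and B2m were lower with EKO-BMDM-exo than with PBS and hold matches to the interferon, X2 and Y box motifs of class I promoters. Promoter stretches of these genes are shown. They are the plus or minus strand as the gene is read, 5′ to 3′, from RefSeq windows (GRCm38.p6) that reach from 250 bases before to 50 after the annotated start. Capitals mark 4 motifs, searched on both strands: a kB-like motif (GGGG, ATT, any base, then CCC), an interferon response element core TTTCNNTT, the X2 core TGACG and the Y box CCAAT.
H2-K1, chr17:34000351-34000466, minus strand: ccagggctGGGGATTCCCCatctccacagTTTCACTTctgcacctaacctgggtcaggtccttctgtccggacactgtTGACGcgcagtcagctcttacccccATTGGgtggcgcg
H2-Q4, chr17:35379435-35379574, plus strand: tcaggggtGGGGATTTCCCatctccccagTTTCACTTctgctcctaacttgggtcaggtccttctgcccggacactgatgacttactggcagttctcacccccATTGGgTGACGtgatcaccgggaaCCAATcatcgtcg
B2m, chr2:122147542-122147646, plus strand: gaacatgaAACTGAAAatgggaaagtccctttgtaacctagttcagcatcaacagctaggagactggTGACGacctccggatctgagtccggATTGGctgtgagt
In the first 2 of these, the first base of the interferon core lies 21 bases after the first base of the kB-like motif. The same spacing was found in the H2-D1 window, which is not printed because GENCODE places all 250 upstream bases in an exon. In H2-K1 the X2 core lies before the reversed Y box, whereas in H2-Q4 the marked TGACG follows a reversed Y box. Whether the TGACG of H2-Q4 acts as an X2 element was not tested. B2m has the interferon core in reverse (AACTGAAA), followed by the X2 core and a reversed Y box, and no kB-like motif in the spelling searched. Other spellings of a kB site were not searched, so the lack of such a site in B2m is not shown. Tapbp, which was lower with EKO-BMDM-exo too, is not printed. Its window held 2 Y box matches and no match to the other motifs.

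Windows were given for 8 of the 10 members, all but Tap2 and Nlrc5. Of these 8, 3 held the kB-like motif (H2-K1, H2-D1 and H2-Q4), 6 the interferon core, 5 the X2 core and 7 the Y box, while the gamma-activated sequence TTCNNNGAA was found in none. Over all 27025 promoter windows of the same length, the kB-like motif occurred in 0.0666%, the interferon core in 24.2%, the X2 core in 21%, the Y box in 37.9% and the gamma-activated sequence in 8.47%. The kB-like motif, the interferon core and the Y box stood together in 0.0185% of the windows. The spelling of the kB-like motif was chosen after these windows had been seen, so its share is a description only.

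Levels of different genes were compared per length, as RPKM, the CPM divided by the exon length in kilobases, averaged over the 9 libraries. The exon length merges all annotated exons of a gene, so it can exceed that of any single transcript, and levels of different genes depend on this choice. B2m was highest at 2291 ± 119 RPKM (SD), followed by H2-D1 at 1154 ± 54.3, H2-K1 at 348 ± 18.3, Tapbp at 124 ± 6.38 and H2-T23 at 43.7 ± 2.98 RPKM. H2-Q4 followed at 22.3 ± 2.08 RPKM and Tap2 at 20.3 ± 0.732 RPKM, with overlapping library ranges. Erap1 at 12.9 ± 0.544 RPKM and Tap1 at 10.8 ± 1.37 RPKM also overlapped, and Nlrc5 was lowest at 6.79 ± 0.291 RPKM. The library ranges of all other neighbours in this order were separate. The transporter subunits, which work as a pair, thus had unequal levels by this measure, with Tap1 below Tap2 in every library. Part of the gap comes from the lengths used, 5476 bases for Tap1 and 3781 for Tap2. Without division by length, Tap1 averaged 53.2, 60.1 and 64.4 CPM with EKO-BMDM-exo, WT-BMDM-exo and PBS. Tap2 averaged 76.4, 75.9 and 77.8 CPM in the same order.

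**Figure D1:**
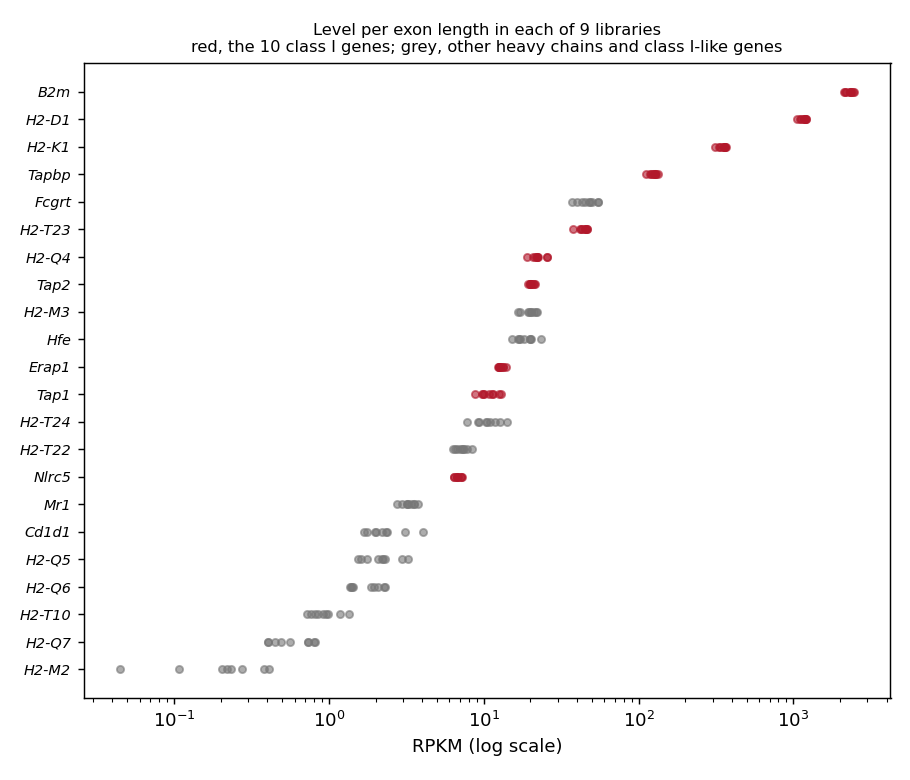
Levels per length (RPKM, log axis) in each of the 9 libraries (points) of the 10 members, in red, and, in grey, of other heavy chain and class I-like genes averaging above 0.1 RPKM; a library with no H2-M2 count is not drawn. B2m and H2-D1 lie at the top, averaging 2291 and 1154 RPKM, and Nlrc5 is the lowest member at 6.79 RPKM.

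The first comparison asks what exosomes of ApoE-deficient macrophages do to these genes, set against buffer. With EKO-BMDM-exo, 4 of the 10 members fell relative to PBS: the heavy chains H2-K1 and H2-Q4, the light chain B2m and the loading chaperone Tapbp. None rose by edgeR's quasi-likelihood test (1, H2-D1, at an unadjusted p under 0.05, and none by DESeq2 or limma-voom). Over all genes tested, 4.23% passed the threshold of an adjusted p under 0.05, 2.41% as lower and 1.82% as higher. The median log2 fold change of the members was -0.10, against -0.00052 over all genes, and 9 of 10 were below 0. In RNA from a whole culture, fewer cells of a type and less RNA per cell cannot be told apart.

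H2-K1 had the lowest adjusted p of the members. It had 965, 918 and 986 CPM in the EKO-BMDM-exo libraries, against 1035, 1055 and 1084 CPM in the PBS libraries. All 3 EKO-BMDM-exo libraries were below all PBS libraries. The means were 956 ± 34.8 and 1058 ± 24.5 CPM (SD, n = 3 each). On the log2 scale this was -0.15 ± 0.030 (SE; edgeR adjusted p = 0.00149), or -9.60% with a 95% interval of -13.3% to -5.70%.

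H2-Q4, a non-classical heavy chain of the Qa region, had 53.8, 49.6 and 55.8 CPM in the EKO-BMDM-exo libraries, against 58.2, 66.0 and 66.6 CPM in the PBS libraries. The groups did not overlap, and the gap between the nearest libraries was narrower than the range within either group. On average it fell by 0.26 ± 0.072 on the log2 scale (SE; edgeR adjusted p = 0.0249), a change of -16.5% with an interval of -24.5% to -7.71%. Exons of other genes cover 19.1% of the exon length of H2-Q4, through the antisense gene Gm11131, and the strand setting of the counting is not given. Gm11131 had 2.78 to 3.22 CPM with EKO-BMDM-exo, at most 1.61 CPM with WT-BMDM-exo and 3.03 to 3.25 CPM with PBS, far below the H2-Q4 levels, and passed the test in no comparison.

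H2-D1, the other classical heavy chain and the more abundant of the pair, went the other way in sign. Its libraries had 3051, 2873 and 3018 CPM with EKO-BMDM-exo and 2835, 2707 and 3017 CPM with PBS, and the groups overlapped. Its mean difference was 0.06 ± 0.030 log2 units (SE; edgeR adjusted p = 0.352). H2-T23, which encodes Qa-1, the ligand of the CD94/NKG2A receptor of natural killer cells, had 122, 108 and 130 CPM with EKO-BMDM-exo, against 121, 124 and 135 CPM with PBS. These ranges overlapped too (log2 fold change -0.07 ± 0.056, edgeR adjusted p = 0.689).

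B2m, the light chain that every class I heavy chain needs to fold, had 1887, 1814 and 1986 CPM in the EKO-BMDM-exo libraries, against 2109, 2075 and 2022 CPM in the PBS libraries. The groups did not overlap. B2m fell by 8.37% (interval -12.4% to -4.18%) or, in log2 units, -0.13 ± 0.032 (edgeR adjusted p = 0.0121). With limma-voom the same change had an adjusted p of 0.256.

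Tapbp encodes tapasin, which bridges TAP and the empty heavy chain. It had 434, 404 and 431 CPM in the EKO-BMDM-exo libraries, against 460, 453 and 481 CPM in the PBS libraries, again without overlap. Tapbp changed by -0.13 ± 0.035 log2 units (edgeR adjusted p = 0.0158), or -8.90% with an interval of -13.3% to -4.30%. Exons of Gm19412 and Zbtb22 overlap 29.02% of its exon length. Zbtb22, at 50.2 to 64.6 CPM over the 9 libraries, did not pass (log2 fold change -0.06, edgeR adjusted p = 0.852).

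The transporter subunits did not pass the test. Tap1 had 53.1, 47.7 and 58.9 CPM with EKO-BMDM-exo, against 54.1, 68.5 and 70.5 CPM with PBS. The lowest PBS library lay among the EKO-BMDM-exo libraries, and the log2 fold change of -0.27 ± 0.085, the lowest of any member in this comparison, had an edgeR adjusted p of 0.0593. It passed without the filter on low counts (adjusted p = 0.00842) and without replicate 3 of EKO-BMDM-exo (0.0245) or replicate 1 of PBS (0.00332), while without replicate 2 of EKO-BMDM-exo the adjusted p was 0.416. Tap2 had 75.0, 75.4 and 79.0 CPM with EKO-BMDM-exo, against 72.4, 81.3 and 79.7 CPM with PBS. Its log2 fold change was -0.03 ± 0.061 (edgeR adjusted p = 0.940), and the interval of the change ran from -9.89% to 7.03%. Exons of Gm15821 and Gm20496, on the other strand, cover 18.5% of the Tap2 exon length. These genes had at most 1.22 and 1.85 CPM in a library. Exons of Psmb9, also on the other strand and at 24.8 to 33.8 CPM, cover 3.87% of the Tap1 exon length.

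Erap1, the trimming enzyme, and Nlrc5, the activator of class I transcription, did not pass either. Erap1 was at 91.0, 89.6 and 90.8 CPM with EKO-BMDM-exo and at 92.2, 96.7 and 91.2 CPM with PBS, just without overlap (log2 fold change -0.05 ± 0.055, edgeR adjusted p = 0.847). Exons of Cast, on the other strand, cover 11.5% of the Erap1 exon length, and Cast was the more abundant gene, at 166 to 181 CPM over the 9 libraries, so that Erap1 counts are uncertain without the strand setting. Cast was at a log2 fold change of 0.06 with EKO-BMDM-exo against PBS (edgeR adjusted p = 0.678). Nlrc5 had 56.8, 56.6 and 58.1 CPM with EKO-BMDM-exo and 54.8, 61.3 and 56.6 CPM with PBS. Its change of -0.717% had an interval of -10.1% to 9.63% (edgeR adjusted p = 0.979), so a fall of the size seen for H2-K1 lies inside the interval. In all, 5 members separated the groups completely, each with EKO-BMDM-exo below PBS, where 18.3% of all genes tested separated, 9.24% as lower and 9.06% as higher.

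**Figure D2:**
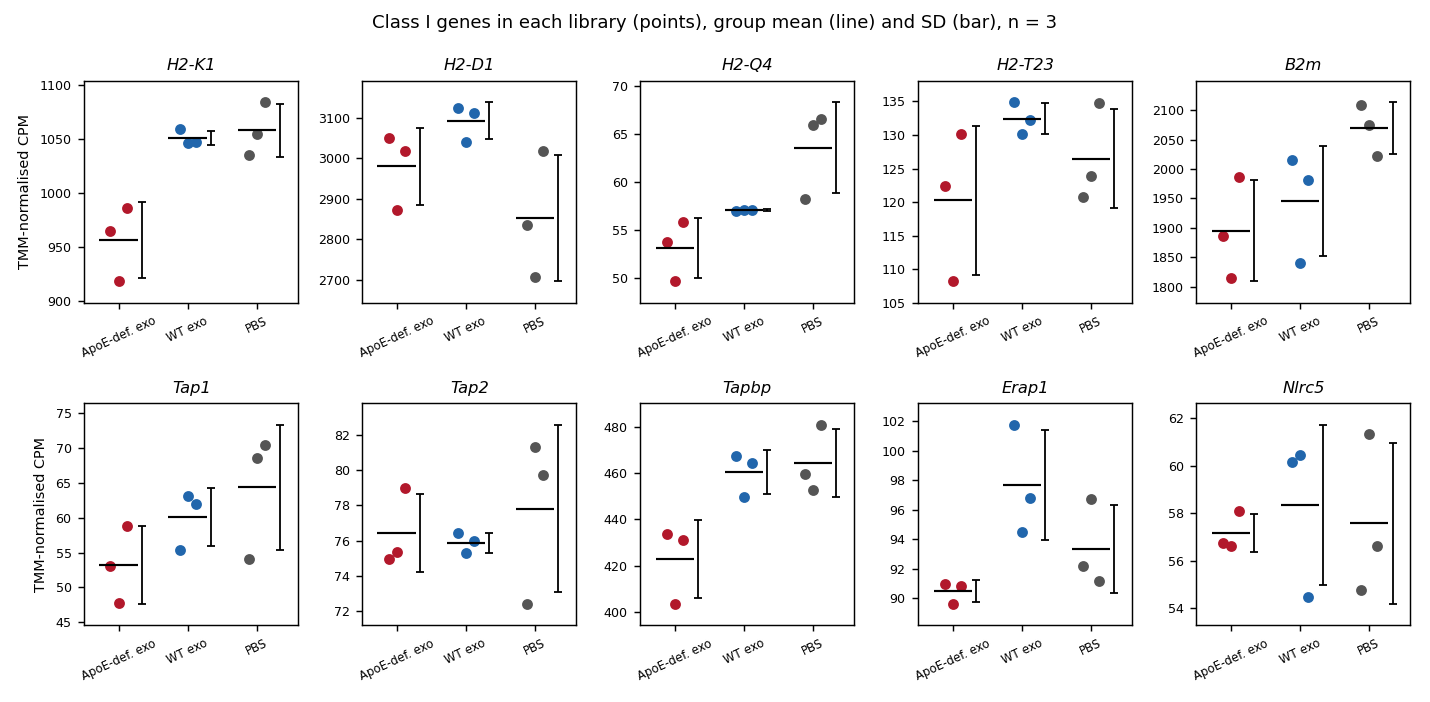
CPM of each member in every library (points) with the group mean (line) and SD (bar), for EKO-BMDM-exo, WT-BMDM-exo and PBS from left to right; the vertical axes do not start at 0. H2-K1, H2-Q4, B2m and Tapbp have all EKO-BMDM-exo points below all PBS points, whereas H2-D1, H2-T23, Tap1, Tap2 and Nlrc5 overlap.

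A single library weighed on these calls. Replicate 2 of EKO-BMDM-exo was the lowest of the 9 libraries for 7 of the 10 members, and the median deviation of its members from the PBS mean was -0.20 on the log2 scale, against -0.07 and -0.05 in replicates 1 and 3 of the group. Without it, no member passed the test with edgeR (6 did at an unadjusted p under 0.05). H2-K1 then had a log2 fold change of -0.11 at an adjusted p of 0.0519, H2-Q4 -0.21 at 0.206, B2m -0.09 at 0.236 and Tapbp -0.10 at 0.240. H2-Q4 and B2m also lost their calls without replicate 1 of EKO-BMDM-exo (adjusted p = 0.0667 and 0.0575) and without replicate 2 of PBS (0.139 and 0.0593). Without replicate 3 of PBS the calls of H2-Q4 (0.133) and Tapbp (0.112) were lost, and without replicate 1 of PBS that of B2m (0.0828). Without replicate 1 of EKO-BMDM-exo, or without replicate 2 of PBS, 2 members passed. Without replicate 3 of PBS, 2 passed as lower and H2-D1 passed as higher.

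The second comparison sets exosomes of wild-type macrophages against buffer, and shares its PBS libraries with the first. Only H2-D1 passed the test, and it rose. It had 3125, 3040 and 3112 CPM in the WT-BMDM-exo libraries, against 2835, 2707 and 3017 CPM in the PBS libraries, with no overlap. H2-D1 rose by 0.12 ± 0.030 log2 units (edgeR adjusted p = 0.0163), or 8.39% with an interval of 3.90% to 13.1%. Over all genes 4.11% passed, 2.18% as lower and 1.93% as higher. The call was lost with limma-voom (adjusted p = 0.293) and without replicate 1 (0.0697) or 3 (0.0629) of WT-BMDM-exo or replicate 1 (0.0607) or 2 (0.188) of PBS.

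None of the 10 members fell with WT-BMDM-exo in the main edgeR fit (2 at an unadjusted p under 0.05). At the same unadjusted cut, 2 fell by DESeq2 and 1 by limma-voom, with no call by either. B2m passed as lower by edgeR with the replicate numbers as a block. The members' median log2 fold change was -0.01, against -0.0033 over all genes. H2-K1 had 1059, 1047 and 1047 CPM in the WT-BMDM-exo libraries, which lay within the PBS range, with a change of -0.01 ± 0.030 log2 units (edgeR adjusted p = 0.946) and an interval of -4.77% to 3.62%. Tapbp had 467, 450 and 464 CPM with WT-BMDM-exo and likewise overlapped PBS, at -0.01 ± 0.035 (edgeR adjusted p = 0.940).

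H2-Q4 and B2m lay below PBS in every WT-BMDM-exo library without passing the test. H2-Q4 had 56.9, 57.1 and 57.1 CPM with WT-BMDM-exo, close together and under the lowest PBS library (log2 fold change -0.16 ± 0.072, edgeR adjusted p = 0.292). B2m had 2016, 1840 and 1981 CPM with WT-BMDM-exo, the first just under the lowest PBS library, at -0.09 ± 0.032 (edgeR adjusted p = 0.125). With H2-D1 these were the 3 members that separated the groups, where 17.5% of all genes did, 8.87% as lower and 8.59% as higher. The other members overlapped: H2-T23 had 130 to 135 CPM with WT-BMDM-exo, Tap1 55.3 to 63.1, Tap2 75.3 to 76.4, Erap1 94.5 to 102 and Nlrc5 54.5 to 60.5 CPM, with log2 fold changes from -0.10 for Tap1 to 0.07 for H2-T23 and Erap1 and edgeR adjusted p-values of 0.690 to 0.954.

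The third comparison asks whether the exosomes of ApoE-deficient and wild-type macrophages differ in their effect, which is the difference itself and needs no buffer. H2-K1 was lower with EKO-BMDM-exo, at 956 ± 34.8 CPM, than with WT-BMDM-exo, at 1051 ± 6.89 CPM (SD, n = 3 each). The difference was -0.14 ± 0.030 log2 units (edgeR adjusted p = 0.0140), or -8.99% with an interval of -12.8% to -5.07%, and the groups did not overlap. It was the only member to pass, where 0.695% of all genes passed and 0.413% as lower. The call was lost without replicate 2 of EKO-BMDM-exo (adjusted p = 0.266) and without any one of the WT-BMDM-exo replicates (0.0591, 0.0533 and 0.0613 for replicates 1, 2 and 3), while the log2 fold change stayed between -0.16 and -0.11.

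The other members mostly lay on the same side without passing. Tapbp was at -0.12 ± 0.035 log2 units (edgeR adjusted p = 0.118; 0.0318 with DESeq2), with 404 to 434 CPM under EKO-BMDM-exo and 450 to 467 CPM under WT-BMDM-exo. H2-T23 was at -0.14 ± 0.056 (edgeR adjusted p = 0.431) and Erap1 at -0.11 ± 0.055 (edgeR adjusted p = 0.616). With H2-K1 and H2-Q4 these made 5 members whose libraries separated, all with EKO-BMDM-exo below WT-BMDM-exo, where 14% of all genes separated, 7.01% as lower and 7.04% as higher. For H2-T23 the gap was very narrow, with 130.17 CPM in the highest EKO-BMDM-exo library and 130.21 CPM in the lowest WT-BMDM-exo library. B2m, by contrast, overlapped between the exosome groups, with a change of -2.56% and an interval of -6.83% to 1.90%. The members' median log2 fold change was -0.11, against 0.00019 over all genes, and Tap2 was the only member above 0, at 0.01 ± 0.061.

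**Figure D3:**
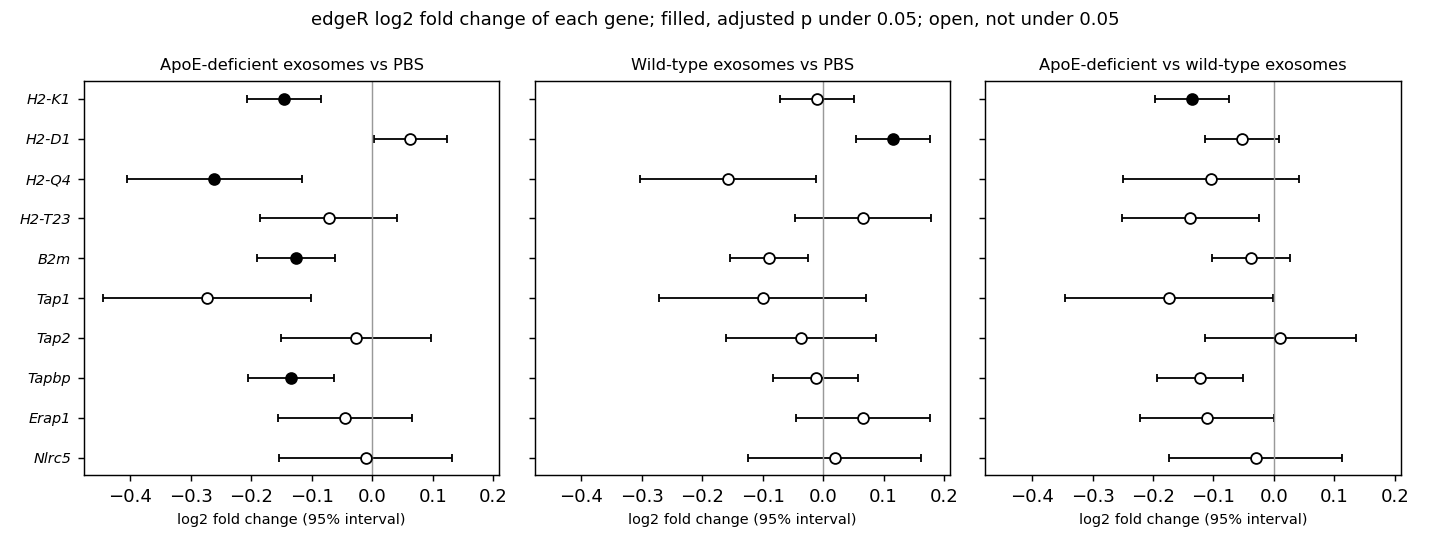
Log2 fold changes of the 10 members with 95% intervals in the 3 comparisons (EKO-BMDM-exo against PBS, WT-BMDM-exo against PBS, EKO-BMDM-exo against WT-BMDM-exo); filled points have an edgeR adjusted p under 0.05. H2-K1 is at -0.15 and -0.14 in the comparisons of EKO-BMDM-exo and at -0.01 for WT-BMDM-exo against PBS, and H2-D1 is above 0 in both comparisons with PBS.

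The classical heavy chains H2-K1 and H2-D1 did not keep a fixed proportion to each other. The ratio of their levels per length, in which library scaling cancels, was chosen after their values were seen and is given without a test. It was 0.278, 0.281 and 0.287 in the EKO-BMDM-exo libraries, 0.297, 0.302 and 0.295 in the WT-BMDM-exo libraries and 0.321, 0.342 and 0.315 in the PBS libraries. No library of a group overlapped with another group, and the order was EKO-BMDM-exo, WT-BMDM-exo, PBS from low to high. The mean log2 difference was -0.21 for EKO-BMDM-exo against PBS, -0.13 for WT-BMDM-exo against PBS and -0.08 for EKO-BMDM-exo against WT-BMDM-exo. Leaving out any library moved the first of these to between -0.23 and -0.17.

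The summed level per length of the 4 heavy chains, relative to that of B2m, was also described after the values were seen. It was 0.718, 0.703 and 0.681 with EKO-BMDM-exo, 0.700, 0.749 and 0.708 with WT-BMDM-exo and 0.618, 0.612 and 0.685 with PBS. WT-BMDM-exo lay above PBS in every library, while replicate 3 of PBS overlapped with EKO-BMDM-exo. H2-D1 makes up most of the heavy chain sum. In CPM that sum was 3949 to 4192 CPM with EKO-BMDM-exo, 4274 to 4376 CPM with WT-BMDM-exo and 3951 to 4303 CPM with PBS, and each exosome group overlapped with PBS.

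**Figure D4:**
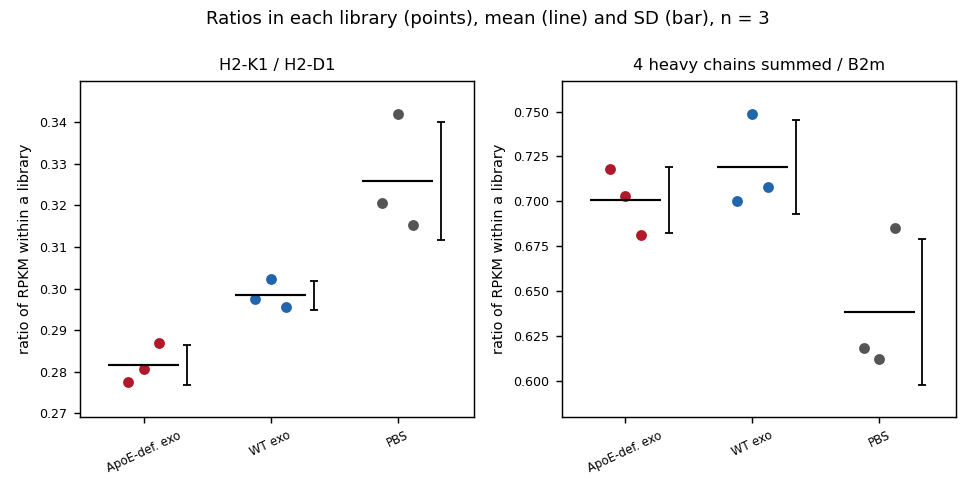
Ratio of H2-K1 to H2-D1, and of the summed heavy chains to B2m, both per length, in each library (points) with the group mean (line) and SD (bar); the vertical axes do not start at 0. The first ratio is 0.278 to 0.287 with EKO-BMDM-exo, 0.295 to 0.302 with WT-BMDM-exo and 0.315 to 0.342 with PBS, without overlap.

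Parts of the heavy chain sequences are shared within the family, which bears on such ratios. Of the distinct 50-base stretches in its transcripts, 9.63% for H2-K1, 12.8% for H2-D1, 36.4% for H2-Q4 and 14.5% for H2-T23 also occur in transcripts of other genes. For 100-base stretches the shares were 0.957%, 3.59%, 14.1% and 3.15% in the same order of genes. B2m shared none at either length. The sources used here give neither the read length nor the handling of reads that match several genes, and H2-Q4 has the largest shared part of the 4 heavy chains.

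The other genes of the pathway were taken from 5 lists with 66 genes, of which 59 were tested. In the main edgeR fit of EKO-BMDM-exo against PBS, 8 of these passed as lower and none as higher. At an unadjusted edgeR p under 0.05, 4 were higher. Calr and Canx passed as higher by DESeq2, by limma-voom and by edgeR with the replicate numbers as a block. The median log2 fold change of the 59 genes was -0.08. Over all genes tested 2.41% passed as lower, and the median was -0.00052. With WT-BMDM-exo against PBS, 5 passed as lower and none as higher (2 as higher at an unadjusted p under 0.05, Canx by DESeq2, none by limma-voom), with a median of -0.01, where 2.18% of all genes passed as lower with a median of -0.0033. Between EKO-BMDM-exo and WT-BMDM-exo, 2 passed as lower and none as higher (1 as higher at an unadjusted p under 0.05, none by DESeq2 or limma-voom), with a median of -0.02, where 0.413% of all genes passed as lower with a median of 0.00019.

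Among the other heavy chains and class I-like proteins, of which 12 of 19 were tested, Fcgrt and Hfe fell with EKO-BMDM-exo. Both encode proteins that pair with beta-2 microglobulin: Fcgrt the neonatal Fc receptor, which recycles IgG and albumin, and Hfe a regulator of iron uptake. Fcgrt had 77.5, 89.9 and 83.5 CPM with EKO-BMDM-exo, 102, 114 and 100.1 CPM with WT-BMDM-exo and 94.7, 106 and 114 CPM with PBS. All EKO-BMDM-exo libraries were below all others. Fcgrt changed by -0.33 ± 0.065 log2 units against PBS (edgeR adjusted p = 0.000946) and -0.34 ± 0.065 against WT-BMDM-exo (edgeR adjusted p = 0.00321), while WT-BMDM-exo against PBS was at 0.01 ± 0.065 (edgeR adjusted p = 0.981). Without replicate 1 of EKO-BMDM-exo, or replicate 2 of WT-BMDM-exo, the difference between the exosomes had an adjusted p of 0.0735 and 0.0823.

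Hfe averaged 58.8 ± 3.71 CPM with EKO-BMDM-exo, 65.0 ± 5.76 CPM with WT-BMDM-exo and 75.5 ± 7.25 CPM with PBS. It fell with EKO-BMDM-exo against PBS (log2 fold change -0.36 ± 0.074, edgeR adjusted p = 0.00145), and stood at -0.22 ± 0.074 with WT-BMDM-exo (edgeR adjusted p = 0.102). The median of the 12 genes was -0.27 with EKO-BMDM-exo against PBS and -0.14 with WT-BMDM-exo against PBS.

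None of the 5 peptide loading chaperones or 13 peptide supply genes, which include the immunoproteasome, passed the main edgeR fit in any comparison. Calr, the glycoprotein chaperone calreticulin, had 1072, 1086 and 1082 CPM with EKO-BMDM-exo, against 1011, 1035 and 1004 CPM with PBS (log2 fold change 0.09 ± 0.029, edgeR adjusted p = 0.0839). Canx, calnexin, was at 0.10 ± 0.032 (edgeR adjusted p = 0.0635). They were the only chaperones at an unadjusted p under 0.05 in that comparison. Both passed with DESeq2, with limma-voom and with edgeR with the replicate numbers as a block. In the other comparisons 1 chaperone (WT-BMDM-exo against PBS) and none (between the exosomes) had an unadjusted p under 0.05, and of the supply genes 1 in each comparison, with no call by DESeq2 or limma-voom but Canx by DESeq2 with WT-BMDM-exo against PBS. Psmb8, an immunoproteasome subunit, had 90.2 ± 3.49 CPM with EKO-BMDM-exo, 94.8 ± 6.60 CPM with WT-BMDM-exo and 94.1 ± 3.79 CPM with PBS, at -0.06 ± 0.059 for EKO-BMDM-exo against PBS (edgeR adjusted p = 0.774).

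Of the 23 transcription factors and interferon signalling genes, 4 fell with EKO-BMDM-exo against PBS, where 2.41% of all genes did, and the list median was -0.13. Irf1, an activator of class I promoters, had 54.3, 53.2 and 56.6 CPM with EKO-BMDM-exo, against 61.8, 67.9 and 69.7 CPM with PBS, without overlap (log2 fold change -0.28 ± 0.069, edgeR adjusted p = 0.00996). Stat2 and Irf9, which act in the response to type I interferon, were at -0.26 ± 0.057 (edgeR adjusted p = 0.00265) and -0.23 ± 0.065 (edgeR adjusted p = 0.0289). Rfx5, a subunit of the factor that binds the X box, was at -0.26 ± 0.117 (edgeR adjusted p = 0.295). The calls were lost for Irf9 without replicate 1 or 2 of EKO-BMDM-exo or replicate 2 or 3 of PBS (adjusted p = 0.0639 to 0.211), for Irf1 without replicate 2 of EKO-BMDM-exo or replicate 2 or 3 of PBS (0.0592 to 0.0727) and for Stat2 without replicate 2 of PBS (0.0513).

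Stat2 also differed between the exosomes. It had 92.2, 90.7 and 104 CPM with EKO-BMDM-exo, against 118, 117 and 120.2 CPM with WT-BMDM-exo and 114, 122 and 107 CPM with PBS. The EKO-BMDM-exo libraries were below all others, by -0.31 ± 0.057 log2 units against WT-BMDM-exo (edgeR adjusted p = 0.00158). Irf9 was at -0.22 ± 0.066 in that comparison (edgeR adjusted p = 0.143) and Irf1 at -0.14 ± 0.070 (edgeR adjusted p = 0.635).

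Ifngr1, a chain of the interferon gamma receptor, fell with both kinds of exosome. It had 182, 173 and 184 CPM with EKO-BMDM-exo, 190.4, 189.7 and 189 CPM with WT-BMDM-exo and 215, 219 and 221 CPM with PBS. The log2 fold change against PBS was -0.28 ± 0.041 for EKO-BMDM-exo (edgeR adjusted p = 8.05e-06) and -0.20 ± 0.041 for WT-BMDM-exo (edgeR adjusted p = 0.00124). The difference between the exosomes was -0.08 ± 0.041 (edgeR adjusted p = 0.637). With WT-BMDM-exo, Irf2, which binds the same elements as IRF1, and Nfkb1, the p50 subunit of NF-kB, fell as well, at -0.19 ± 0.052 and -0.17 ± 0.047 (edgeR adjusted p = 0.0287 and 0.0323). With EKO-BMDM-exo against PBS they were at -0.15 ± 0.052 and -0.14 ± 0.047 without passing (edgeR adjusted p = 0.1001 and 0.106), and between the exosomes both were at 0.03 (edgeR adjusted p = 0.946 and 0.950). Leaving out single libraries of either group gave adjusted p-values up to 0.177 for Irf2 and 0.151 for Nfkb1, both without replicate 1 of PBS.

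In the list of 6 surface turnover genes, Susd6 and March1 fell with both kinds of exosome against PBS. SUSD6 is known from human cells to promote the degradation of class I molecules, and MARCH1 is a membrane ubiquitin ligase known mainly for acting on MHC class II. March1 had 58.3, 50.9 and 56.6 CPM with EKO-BMDM-exo, 58.4, 58.5 and 55.4 CPM with WT-BMDM-exo and 70.1, 70.1 and 72.3 CPM with PBS. Its log2 fold change was -0.36 ± 0.068 with EKO-BMDM-exo (edgeR adjusted p = 0.000575) and -0.30 ± 0.068 with WT-BMDM-exo (edgeR adjusted p = 0.00463). Susd6 was at -0.16 ± 0.038 (edgeR adjusted p = 0.00801) and -0.14 ± 0.038 (edgeR adjusted p = 0.0261) in the same order. Between the exosomes these were at -0.06 and -0.02, with edgeR adjusted p-values of 0.919 and 0.963. March1 passed under all 12 alternatives in both comparisons with PBS, whereas Susd6 did so under 9 with EKO-BMDM-exo and 6 with WT-BMDM-exo. With EKO-BMDM-exo its call was lost without replicate 1 (adjusted p = 0.0581) or 2 (0.0866) of that group or replicate 1 of PBS (0.0898). With WT-BMDM-exo it was lost without any one replicate of that group (0.0743 to 0.101), without replicate 1 (0.202) or 2 (0.0587) of PBS, and without the filter on low counts (0.0595).

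**Figure D5:**
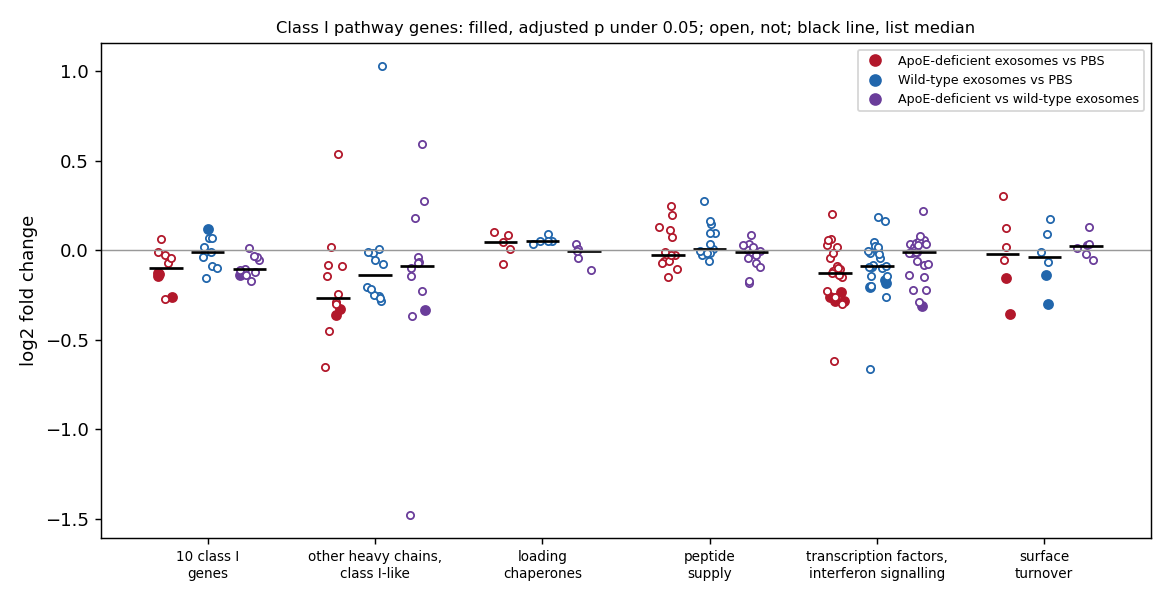
Log2 fold changes of the members and of the 59 tested genes of the 5 other class I pathway lists (points, 1 per gene) in each comparison, filled where the edgeR adjusted p is under 0.05, with the list median as a line. The other heavy chains and class I-like proteins have a median of -0.27 and the loading chaperones of 0.05 for EKO-BMDM-exo against PBS.

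Across the 9 libraries the members varied in different ways. The mean of their standardised log2 CPM values served as their shared pattern, and the root mean square distance of each member to it was lowest for H2-K1 (0.357), followed by H2-T23 (0.473), Tapbp (0.489), Tap1 (0.525) and H2-Q4 (0.532). It was larger for Erap1 (0.798), B2m (0.841), Tap2 (0.876) and Nlrc5 (1.03), and largest for H2-D1 (1.21). Members take part in the mean, so their own distances are a description. Among the 9491 other genes with a mean of at least 5 CPM, whose median distance was 1.34, the closest were Znfx1 (0.275), Rbmxl1 (0.282), Lxn (0.298), Utp14b (0.335) and Parp9 (0.338). These genes were picked for following the members over the same libraries, so their differences between groups restate the choice and are given without a test: for EKO-BMDM-exo against PBS the log2 fold changes were -0.18 for Znfx1, -0.46 for Rbmxl1, -0.15 for Lxn, -0.23 for Utp14b and -0.20 for Parp9.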

How the data were processed

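The authors deposited a table of raw gene counts, keyed by Ensembl gene, for 9 libraries, 3 per group. Per the labels' protocols, total RNA was taken with a column kit and sequenced from mRNA libraries. Per the submitters' processing notes, STAR 2.7.5c and GRCm38 were used. The sources used here do not give the annotation release, strand setting, read length or trimming. Symbols and exon lengths came from GENCODE M21 (55450 of 55536 rows matched). Counts were scaled with TMM factors and filtered with filterByExpr at a minimum count of 10, leaving 13815 genes. They were tested with edgeR 4.0.16 in R 4.3.3, by a quasi-likelihood fit with robust dispersion, group as its only term and all 9 libraries. P-values were adjusted over all genes tested by the Benjamini-Hochberg method at a threshold of 0.05. The SE is the log2 fold change divided by the root of the F statistic, and intervals are 95%. DESeq2 1.42.0, limma 3.58.1 (voom), RLE factors, no filter, a replicate block, only the 6 libraries compared and each library left out were alternatives. The steps were tested on simulated counts with changes larger than any member's here, so changes of the members' size were not covered. The members, lists and alternatives were chosen with earlier results of these data known. All 10 members were named. In each other list the genes past the threshold, up to 4 per comparison by lowest p, and Irf1, Rfx5 and Psmb8 were named, with the 5 genes closest in pattern. A further gene of that rule is not reported here. Calr, Canx, Fcgr1 and overlapping genes were named after their values were seen. Chi-square per gene between libraries was 6.76 to 18.3, so none was a repeat of another.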

Additional observations from a re-analysis of the deposited data

Results flagged for a closer look

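Among the members, H2-K1 responded differently to the exosomes of ApoE-deficient and wild-type macrophages by the test of the difference itself, at a log2 fold change of -0.14 between EKO-BMDM-exo and WT-BMDM-exo. Among the other pathway genes the same held for Fcgrt, at -0.34, and Stat2, at -0.31. The call stood in 8 of 12 alternatives for H2-K1, in 10 for Fcgrt and in 12 for Stat2. With 3 libraries per group, no group was large enough to be searched for a single library far from the rest.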

How the results depend on the processing

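Counts of members past the threshold rested on single libraries. For EKO-BMDM-exo against PBS the count of 4 became 0 to 5 when each library was left out, and 3 with limma-voom to 5 without the filter or with the replicate block, both of which added Tap1 (adjusted p = 0.00842 and 0.0346). For WT-BMDM-exo against PBS the count of 1 became 0 to 1 with a library left out, 0 with limma-voom and 2 with the replicate block, which added B2m as lower (adjusted p = 0.0398). Between the exosomes the count of 1 became 0 to 1, and 2 with DESeq2 or with the replicate block, both times through Tapbp. Of the other pathway genes 8, 5 and 2 passed in the 3 comparisons, against 5 to 9, 2 to 4 and 1 to 2 with a library left out, and 13 with DESeq2 in the first. With the replicate block, 9 passed as lower and 2 as higher, Calr and Canx, in the first comparison. Leaving out a library turned the sign of values near 0: for EKO-BMDM-exo against PBS, H2-T23 ran from -0.13 to 0.00075, Tap2 from -0.074 to 0.0088 and Nlrc5 from -0.043 to 0.040. For WT-BMDM-exo against PBS, H2-K1 ran from -0.024 to 0.0072, Tapbp from -0.029 to 0.012 and Nlrc5 from -0.014 to 0.069. Tap2 ran from -0.017 to 0.022 between the exosomes. The causes were not tested. Of the calls on members, H2-K1 held in 11 of 12 alternatives, Tapbp in 10, H2-Q4 in 8 and B2m in 7 for EKO-BMDM-exo against PBS, H2-D1 in 7 for WT-BMDM-exo against PBS and H2-K1 in 8 between the exosomes. Over all genes 585, 568 and 96 passed, against 711, 761 and 157 with DESeq2. Same-numbered libraries did not deviate together (correlations of -0.04 to 0.04 over 9 pairs), so the block rests on shared numbers only. With at least 1366 counts per member and library, the spread between libraries limits the precision more than depth does.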
